A study of Mus musculus with 4 samples.

Results

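Replication-dependent histone genes supply the core and linker histones that package newly copied DNA. They were taken from the count table as every gene symbol that begins with Hist1h, Hist2h, Hist3h or Hist4h, the clustered histone genes of the mouse, with names marked as pseudogenes by the suffix -ps left out. The rule found 69 genes among the 46095 symbols of the table, of which 6 encode linker histone H1, 20 encode H2A, 18 encode H2B, 12 encode H3 and 13 encode H4. The annotation (GENCODE vM21, mouse build GRCm38) places 56 of them on chromosome 13, 10 on chromosome 3, 2 on chromosome 11 and 1 on chromosome 6, and it lists 2 of the H2A genes, Hist1h2aj and Hist1h2al, as pseudogenes.

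The libraries came from the colon of C57BL/6 mice at postnatal day 21. Group WT, 2 libraries, was wild type, and group Esr2-KO, 2 libraries, carried the genotype Esr2-/-, the loss of the gene of estrogen receptor β. No treatment is named, the sources used here do not give the deleted stretch of Esr2, and no tissue restriction of the loss is stated. Separate animals are not named in the labels, so the p-values measure the spread between these libraries, which may be technical. The design text speaks of triplicates, and further libraries were not analysed here.

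Cells make most histone protein while they copy their DNA, and the genes for it are switched on together in S phase by the coactivator NPAT. Their mRNAs are usually not polyadenylated: they end in a short conserved stem-loop that is bound by SLBP, cut just after it with the help of the U7 snRNP, and degraded when replication stops. Some members are also made as longer, polyadenylated or spliced transcripts in cells that no longer divide. In the colon the dividing cells lie in the lower crypt, while replacement histones, made outside these clusters and from ordinary polyadenylated mRNAs, serve cells in all phases.

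The stem-loop was searched in the annotated transcripts as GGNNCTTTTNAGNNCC, on the transcript strand. It was found in 44 of the 69 histone genes and in 45 of 55272 other annotated genes (0.0814%), one of which is H2afx, a histone variant gene outside the clusters. The sites below are shown because they display the element that defines these mRNAs and how it differs between classes. Capitals mark the stem-loop, and the bases come from the GENCODE vM21 transcripts.
Hist1h1c (H1): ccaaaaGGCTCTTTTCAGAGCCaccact
Hist1h2ac (H2A): cccaaaGGCTCTTTTCAGAGCCcccact
Hist2h2ac (H2A): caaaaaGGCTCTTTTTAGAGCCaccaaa
Hist1h4h (H4): accaaaGGCCCTTTTCAGGGCCgcccac
Hist1h4i (H4): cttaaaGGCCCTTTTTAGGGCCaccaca
Hist1h4j (H4): cctaaaGGTCCTTTTCAGGACCaccaca

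The form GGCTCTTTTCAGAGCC was held by 3 H1, 10 H2A, 8 H2B and 5 H3 genes. The H4 genes carried another stem, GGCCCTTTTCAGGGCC in 7 genes and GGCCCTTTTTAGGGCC in 2, and the stem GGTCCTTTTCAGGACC in 2 more. The genes without a match included the H2B genes Hist1h2bc, Hist2h2be, Hist1h2bq and Hist1h2br. That says only that these letters are not in those transcript models.

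The 4 libraries held 30826790 to 33709643 counts, so that a floor of 3 counts stands for 0.0826 to 0.114 CPM (counts scaled to a common TMM-adjusted total). Esr2 itself had 21 and 13 counts (WT) against 6 and 16 (Esr2-KO), for a log2 fold change of -0.32 ± 0.77 (SE, n = 2 per group) with an edgeR adjusted p of 0.854, which neither checked nor contradicted the labels. The library Esr2-KO 2 stood apart. Genes of the exocrine pancreas took 20.0% of its counts, where the others had 0.0498% (WT 1), 0.0547% (WT 2) and 0.193% (Esr2-KO 1), and its TMM factor was 0.856 against 1.04 to 1.08. Colon markers were present in all 4 libraries, with 11 genes summing to 0.598% to 1.34% of the counts. They went both ways, 6 positive and 5 negative. Of the 11, edgeR called 2 lower in Esr2-KO, where 1.39% of all genes tested were called lower. They were Cdx2, a transcription factor of gut identity, and Car1, a carbonic anhydrase of colonocytes (log2 fold changes -2.03 ± 0.34 and -2.11 ± 0.39, adjusted p 0.0373 and 0.0469). Another carbonic anhydrase, Car4, had 546 and 685 CPM (WT) against 1156 and 1348 CPM (Esr2-KO), at 1.02 ± 0.21 (adjusted p 0.0596).

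Histone genes were a small fraction of every library, and 3 genes held most of it. The 69 genes summed to 11939 and 11825 counts (WT) against 12640 and 11300 (Esr2-KO), or 0.0354%, 0.0355%, 0.0383% and 0.0367% of the library totals (95% Wilson intervals 0.0348 to 0.0361, 0.0349 to 0.0361, 0.0377 to 0.0390 and 0.0360 to 0.0373, counting error only). Hist1h1c, which encodes linker histone H1.2, and the H2B genes Hist1h2bc and Hist2h2be together held 86.5%, 89.0%, 90.7% and 90.0% of those counts in the order WT 1, WT 2, Esr2-KO 1, Esr2-KO 2 (Wilson intervals 85.9 to 87.2, 88.5 to 89.6, 90.1 to 91.2 and 89.5 to 90.6). These 3 genes were the members with more than 1000 counts over the 4 libraries, and 17 members had more than 100. The other 66 genes shared 1606, 1296, 1180 and 1127 counts.

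**Figure D1:**
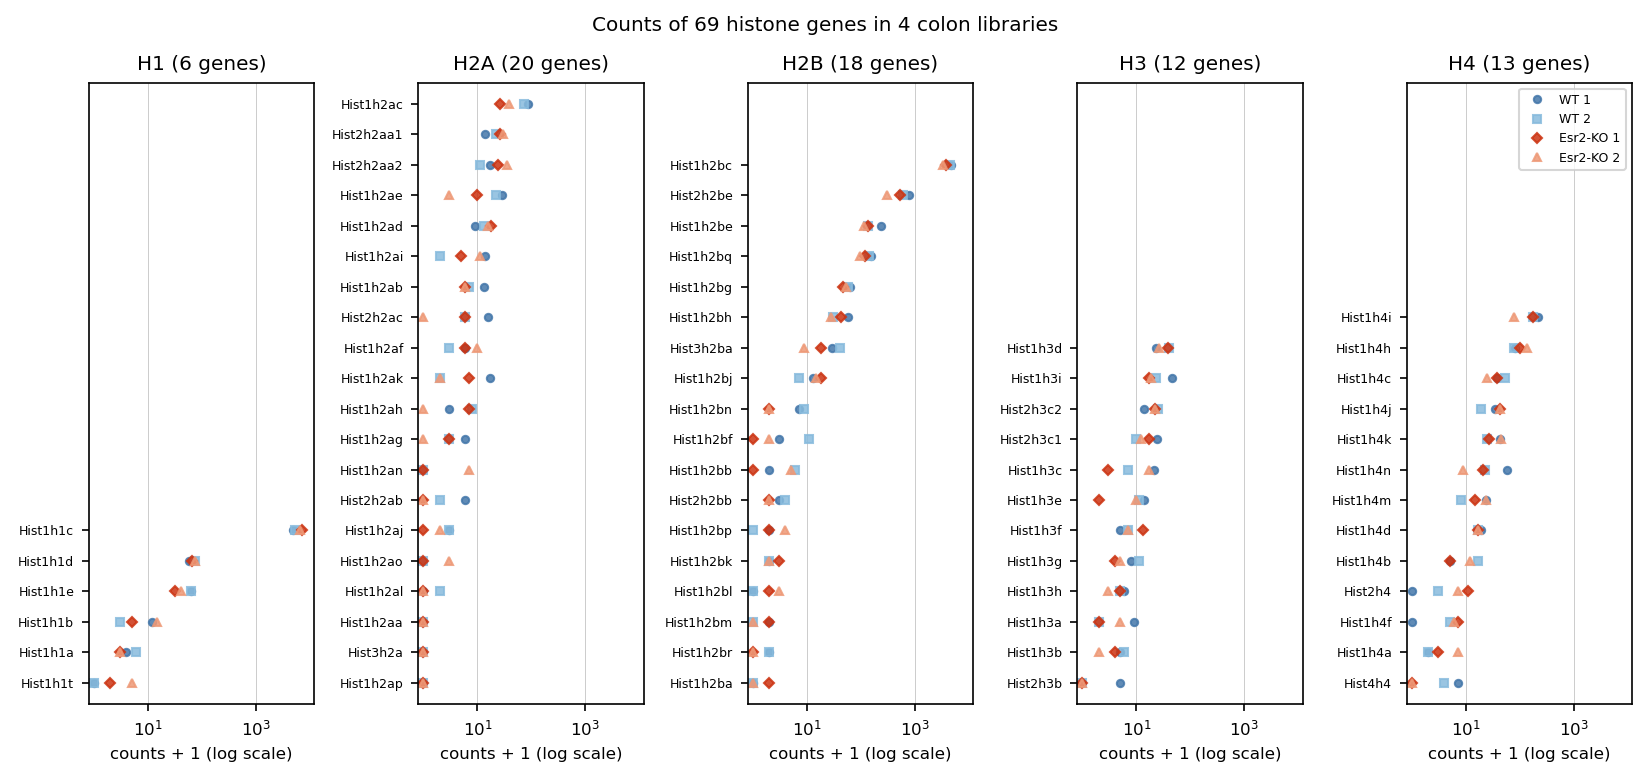
Counts plus 1 of each of the 69 histone genes (horizontal log axis) in the libraries WT 1, WT 2, Esr2-KO 1 and Esr2-KO 2 (1 symbol each), in 1 panel per histone class and ordered by mean CPM. Hist1h1c and Hist1h2bc lie far to the right of the other members of their class, and for many members the 4 symbols are mixed.

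Hist1h1c spans chr13:23738808-23740367 on the plus strand as 1 exon, and only 8.5% of the 50-base windows of its transcript occur in another annotated gene. Hist1h2bc spans chr13:23684199-23692908 on the plus strand and is annotated as a spliced transcript with 2 exons, and Hist2h2be spans chr3:96221119-96223738 on the plus strand as 1 exon. Per length, Hist1h1c averaged 119 CPM per kb of exon and Hist1h2bc 108, while Hist2h2be averaged 6.34, beside the H4 genes Hist1h4h at 6.67 and Hist1h4i at 6.55. The median of the 32 histone genes that passed the low-count filter was 1.08 CPM per kb, against 4.08 over 15936 genes that passed it and have an annotated length, and the median of all 69 was 0.338. The median histone gene was thus below the median gene that passed, whereas Hist1h1c and Hist1h2bc were far above it.

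Of the 69 genes, 32 passed the low-count filter and entered the test, and 37 did not. Among the 37, Hist1h2aa, Hist1h2ap and Hist3h2a had no count in any library, and the 34 others reached at most 16 counts in a library, with a median total of 10. Each library detected 56 to 58 of the 69 genes, and 29 to 34 of them with at least 10 counts. The genes are also hard to tell apart. In 34 of the 69, at least 50% of the 50-base windows of the transcript occur in another annotated gene, and 26 overlap another annotated gene. The sources used here do not give how reads that fit several genes were counted or whether strand was used, so values of such genes are uncertain one by one. Hist1h2bq, an H2B gene with 504 counts in all, shares 97.3% of its windows, and Hist1h2br, the gene it shares them with, had 2 counts.

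Most histone counts came from genes whose annotated transcript end was called extended, and most of those from 3 genes. A transcript end was called extended where the model runs more than 100 bases past the stem-loop, ends with a polyadenylation signal (AATAAA or ATTAAA, 10 to 35 bases from the end) or has more than 1 exon. This definition was made after the counts were seen and is descriptive. Hist1h2bc met only the exon criterion, with 2 exons and neither a stem-loop match nor a signal. Models that met none were called short, including those without a stem-loop match, such as that of Hist1h4k. The 29 genes with an extended end summed to 11570, 11593, 12413 and 11012 counts, and the 40 with a short end to 369, 232, 227 and 288. Of the extended sums, Hist1h1c, Hist1h2bc and Hist2h2be held 10333, 10529, 11460 and 10173. The short-end genes were low in all 4 libraries, and their sums overlapped between the groups. Their median was 0.269 CPM per kb and their highest member, the H4 gene Hist1h4k, reached 3.40, against a median of 0.669 and a highest value of 119 for the extended ends. The filter kept 20 of the 29 and 12 of the 40. Shared sequence was not held equal between the kinds of end. Hist1h4k shares 71.5% of its 50-base windows with other genes, against 8.5% for Hist1h1c and 30.1% for Hist1h2bc, though Hist1h2bq, also extended, shares 97.3%. The part of shared sequence in the gap between short and extended ends was not tested.

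**Figure D2:**
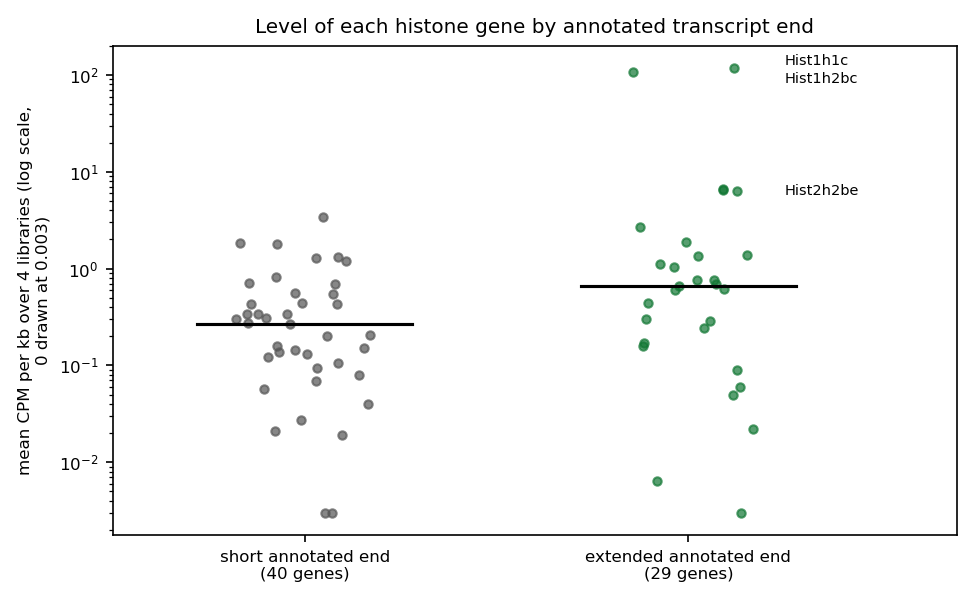
Mean CPM per kb of exon over the 4 libraries (vertical log axis, a level of 0 drawn at 0.003) of the 40 histone genes with a short and the 29 with an extended annotated transcript end, 1 point per gene, with the median as a line. The medians are 0.269 and 0.669, and the 2 highest points, Hist1h1c and Hist1h2bc, belong to the extended ends.

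RNAs that lack a poly(A) tail outside the histone family give counts to set beside this. The protocol in the labels names depletion of ribosomal RNA, whereas the design text speaks of mRNA. The 15 listed RNAs of this kind summed to 160, 274, 255 and 154 counts, and Rn7sk, the 7SK RNA that holds the elongation factor P-TEFb, had 110, 188, 177 and 93. The range of these sums overlapped that of the sums over the 40 short-end histone genes. The lists differ in the number and length of their genes, so the overlap does not compare levels per gene. Whether the library preparation set either sum was not tested.

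H2A and H2B genes often stand back to back and share the stretch between their starts. There were 13 such pairs with starts within 500 bases on opposite strands, each of 1 H2A and 1 H2B gene. Per kb of exon, the most unequal was Hist1h2ac with Hist1h2bc, whose starts lie 251 bases apart. Hist1h2ac had 222 counts over the 4 libraries and Hist1h2bc had 16423. The annotated exon lengths, on which values per kb depend, are 2482 and 1156 bases. Per kb of exon Hist1h2bc was 161-fold higher in the mean, and by library 114-fold (WT 1), 137-fold (WT 2), 331-fold (Esr2-KO 1) and 190-fold (Esr2-KO 2). Hist2h2ac and Hist2h2be, 239 bases apart on chromosome 3, had 25 and 2238 counts, an 18.8-fold difference per kb in the same direction. Hist1h2bq had 504 counts and its partner Hist1h2ao 2, so by counts this pair and that of Hist2h2be were more unequal than that of Hist1h2bc. In other pairs the H2A gene had more counts, as in Hist1h2ad with 52 against 13 for Hist1h2bf, so the H2B gene was not the higher one throughout.

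**Figure D3:**
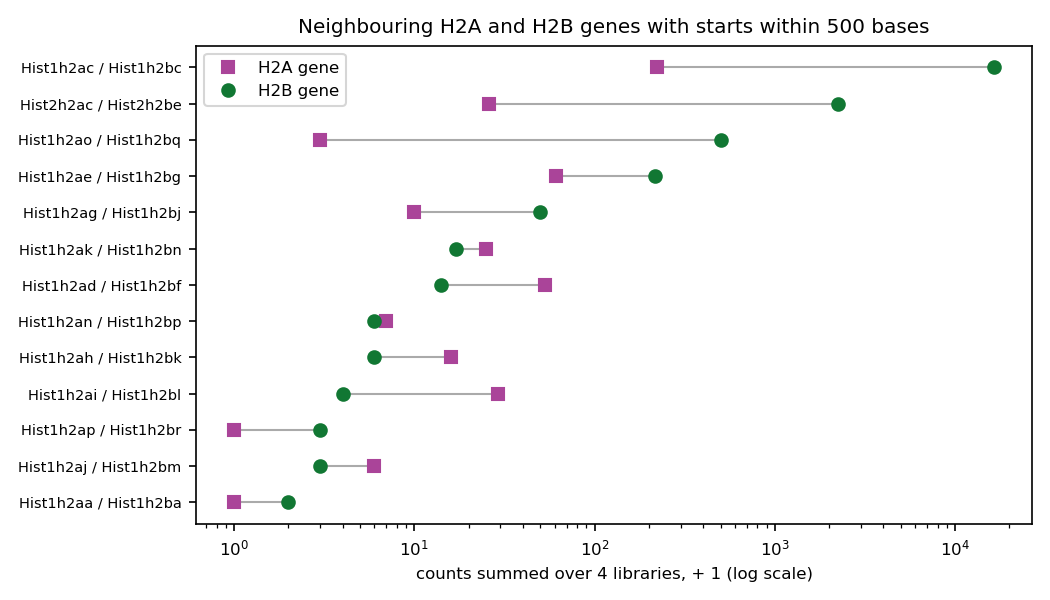
Counts plus 1, summed over the 4 libraries (horizontal log axis), of the H2A gene (square) and the H2B gene (circle) in the 13 neighbouring pairs whose starts lie within 500 bases. The widest gaps are those of Hist1h2bc over Hist1h2ac (16423 against 222 counts), Hist2h2be over Hist2h2ac (2238 against 25) and Hist1h2bq over Hist1h2ao (504 against 2).

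The promoter windows of Hist1h1c and of the H2A genes paired with Hist1h2bc and Hist2h2be are shown because the 3 genes with the most counts start in or beside them. They run from 250 bases before to 50 bases after the start, come from RefSeq (GRCm38.p6), and are written on the strand of the named gene. Capitals mark, on either strand, the box CCAAT (its reverse form is ATTGG), the box TATAAA (reverse form TTTATA) and the octamer ATTTGCAT (reverse form ATGCAAAT).
Hist1h1c, chr13:23738557-23738856, plus strand: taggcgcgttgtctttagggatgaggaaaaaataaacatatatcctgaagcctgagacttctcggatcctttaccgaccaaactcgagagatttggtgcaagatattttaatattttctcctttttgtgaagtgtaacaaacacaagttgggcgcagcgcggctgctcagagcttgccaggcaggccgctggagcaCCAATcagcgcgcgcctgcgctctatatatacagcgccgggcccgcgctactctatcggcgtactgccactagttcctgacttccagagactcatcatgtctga
Hist1h2ac, chr13:23683910-23684209, minus strand: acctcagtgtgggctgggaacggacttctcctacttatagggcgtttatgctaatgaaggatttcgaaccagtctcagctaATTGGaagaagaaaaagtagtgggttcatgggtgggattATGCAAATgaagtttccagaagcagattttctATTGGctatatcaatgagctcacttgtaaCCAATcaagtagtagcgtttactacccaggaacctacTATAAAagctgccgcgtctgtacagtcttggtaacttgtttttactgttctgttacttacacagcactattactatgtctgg
Hist2h2ac, chr3:96220831-96221130, minus strand: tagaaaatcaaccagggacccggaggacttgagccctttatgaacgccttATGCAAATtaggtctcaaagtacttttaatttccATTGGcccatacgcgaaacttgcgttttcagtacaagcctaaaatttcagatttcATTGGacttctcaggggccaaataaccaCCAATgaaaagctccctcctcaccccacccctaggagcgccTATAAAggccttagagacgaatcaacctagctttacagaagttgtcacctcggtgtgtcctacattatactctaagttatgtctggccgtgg

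The RefSeq table held promoter windows of 62 of the 69 genes, without Hist1h2aj, Hist1h2al, Hist1h2bc, Hist1h3a, Hist1h3f, Hist2h2be and Hist2h4. CCAAT, the letters bound by the factor NF-Y, was in 53 of these 62 windows (85.5%), against 41.0% of 26963 windows of other genes. It was in each of the 6 H1, 18 H2A, 16 H2B and 10 H3 windows and in 3 of the 12 H4 windows. TATAAA was in 35 of 62 (56.5%, others 15.6%), and the octamer ATTTGCAT in 14 of 62 (22.6%, others 1.92%), 7 of them H2A and 7 H2B. Windows of neighbouring pairs overlap, so these are not independent windows, and a match is a description of letters and not a site.

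The comparison of Esr2-KO with WT asks whether loss of estrogen receptor β went with a different level of histone transcripts. At an adjusted p under 0.05, edgeR's quasi-likelihood test called 0 of the 32 tested histone genes, against 2.69% of all 17169 genes tested (1.30% higher and 1.39% lower). At an unadjusted p under 0.05 there were 3, Hist1h1c higher and Hist2h2be and Hist1h2ae lower, against 20.6% of all genes. By limma-voom 0 were called (3.53% of all genes), and by DESeq2 1 was, Hist1h1c (10.2% of the genes to which it gave an adjusted p). Esr2-KO lay wholly above WT in 7 of the 32 and wholly below in 8, where 27.0% and 27.7% of all tested genes did so (54.7% in all). The log2 fold change was positive in 16 and negative in 16, with a median of -0.0023, beside -0.0031 over all genes tested.

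**Figure D4:**
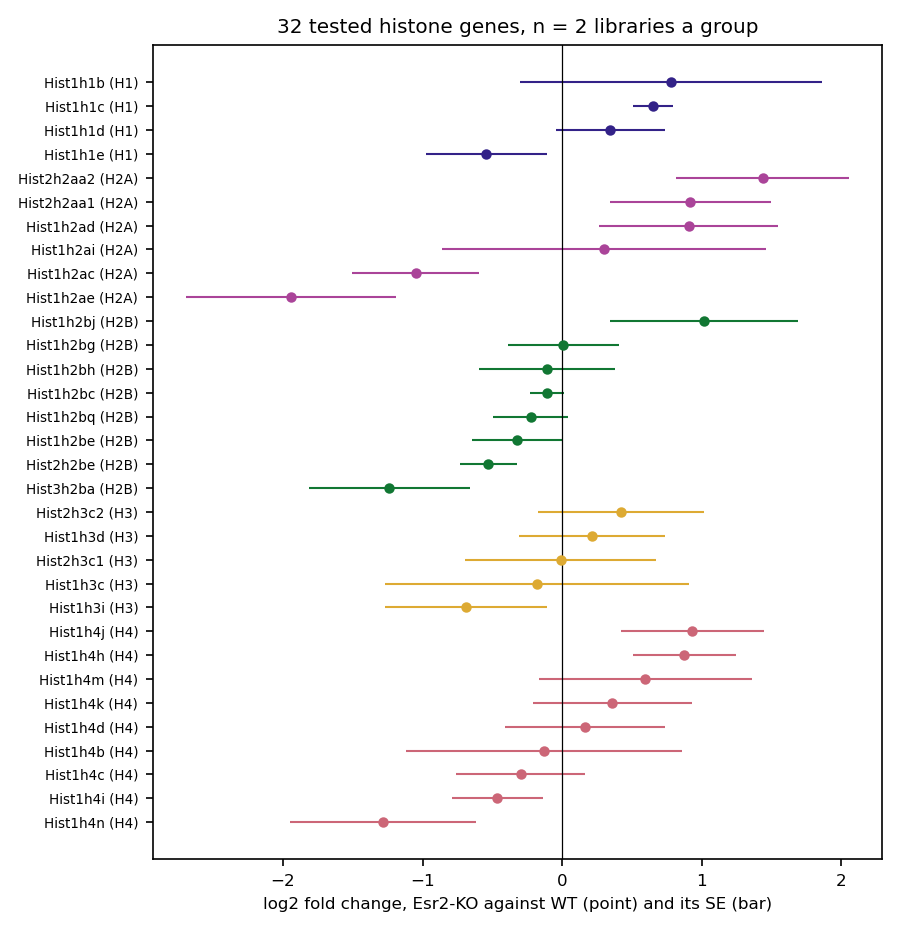
Log2 fold change of Esr2-KO against WT (point) with its SE (bar) for the 32 tested histone genes, coloured and grouped by class, n = 2 libraries a group. Points lie on both sides of 0 in every class, and the short bars of Hist1h1c, Hist1h2bc and Hist2h2be belong to the genes with the most counts.

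Hist1h1c came nearest to a call. It stood at 135 and 153 CPM (WT) against 207 and 247 CPM (Esr2-KO). Both Esr2-KO libraries were above both WT libraries. Its fold change on the log2 scale, 0.65 ± 0.14 (SE, n = 2 per group), had an unadjusted p of 0.0031 and an adjusted p of 0.0691. The call depended on the setting: the adjusted p was 5.45e-04 by DESeq2 and 0.00489 without the low-count filter, but 0.295 with library totals in place of TMM. Over all alternatives run, which include leaving out each library, the log2 fold change ranged from 0.48 to 0.78.

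The other linker histone genes had far fewer counts. Hist1h1d, which encodes H1.3, had 57 and 75 counts (WT) against 65 and 75 (Esr2-KO), for a log2 fold change of 0.34 ± 0.39 with overlapping counts. Hist1h1e, which encodes H1.4, had 62 and 63 counts (WT) against 31 and 40 (Esr2-KO), for a log2 fold change of -0.55 ± 0.43 (adjusted p 0.519). Hist1h1e thus went the other way from Hist1h1c, but neither passed the threshold. Hist1h1t, the linker histone of spermatocytes, had 0 counts in both WT libraries and 1 and 4 in Esr2-KO.

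No H2A gene reached an average of 2 CPM, and the 6 tested members were split. Hist1h2ac had 87 and 72 counts (WT) against 25 and 38 (Esr2-KO), for a log2 fold change of -1.05 ± 0.46 (adjusted p 0.258). Hist1h2ae had 28 and 21 counts (WT) against 9 and 2 (Esr2-KO), the lowest fold change of the 32 genes at -1.94 ± 0.75 (adjusted p 0.211). Both groups of counts were separate for these genes, with Esr2-KO below. Hist2h2aa1 and Hist2h2aa2, neighbouring copies on chromosome 3, lay on the other side. Hist2h2aa2 had 16 and 10 counts (WT) against 23 and 35 (Esr2-KO), the highest fold change of the 32 at 1.44 ± 0.62 (adjusted p 0.254), and Hist2h2aa1 had 13 and 21 against 25 and 29, at 0.92 ± 0.57. Every 50-base window of Hist2h2aa2 also occurs in another annotated gene, so its reads cannot be assigned to it with certainty.

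Among the H2B genes, Hist1h2bc was nearly level. It stood at 127 and 132 CPM (WT) against 113 and 127 CPM (Esr2-KO), for a log2 fold change of -0.11 ± 0.12 (adjusted p 0.652). Hist2h2be had 21.8 and 17.5 CPM (WT) against 15.4 and 11.8 CPM (Esr2-KO), below WT in both libraries, with a log2 fold change of -0.53 ± 0.20 and an adjusted p of 0.212. No 50-base window of Hist2h2be occurs elsewhere in the annotated transcripts. Hist1h2be had 234 and 134 counts (WT) against 133 and 115 (Esr2-KO), at -0.32 ± 0.32, and turned to 0.10 without WT 1, the library with the high count. Hist3h2ba, the tested H2B gene of chromosome 11, had 28 and 40 counts in WT against 17 and 8, at -1.24 ± 0.57 (adjusted p 0.285). Hist1h2bj lay above WT with 12 and 6 counts against 17 and 14, at 1.02 ± 0.67. Of the 8 tested H2B genes 6 were negative, and none passed.

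In none of the 5 tested H3 genes were the groups separate in CPM, where they were separate in 54.7% of all genes tested. Hist1h3d had 22 and 40 counts (WT) against 37 and 25 (Esr2-KO), at 0.21 ± 0.52, and turned to -0.18 without WT 1. Hist1h3i had 44 and 22 counts (WT) against 16 and 18 (Esr2-KO) when unscaled, but 0.632 CPM in WT 2 and 0.683 CPM in Esr2-KO 2, so the scaled groups overlap (-0.69 ± 0.58). Hist2h3c2 on chromosome 3 had 13 and 24 counts against 21 and 21, at 0.42 ± 0.60. Its near-identical neighbour Hist2h3c1 had 23 and 9 against 16 and 11, at -0.011 ± 0.68, a value whose sign depends on the setting.

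H4 had the most tested members, 9, with 5 positive and 4 negative. Hist1h4h had 81 and 76 counts (WT) against 100 and 137 (Esr2-KO), above WT in both, with a log2 fold change of 0.87 ± 0.37 (adjusted p 0.246). Hist1h4i had 216 and 178 counts (WT) against 172 and 78 (Esr2-KO), below WT in both, at -0.46 ± 0.32 (adjusted p 0.465). These 2 most abundant H4 genes, which encode the same kind of histone, thus had fold changes of opposite sign. Hist1h4j had 34 and 18 counts against 41 and 42 (0.93 ± 0.51), and Hist1h4n had 57 and 22 against 20 and 8 (-1.28 ± 0.66, adjusted p 0.329). Hist1h4c had 36 and 51 counts against 37 and 24, at -0.30 ± 0.46, and turned to 0.026 without WT 2. Hist4h4, the member on chromosome 6, had 6 and 3 counts in WT and none in Esr2-KO and was not tested.

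Sums over a class do not depend on how reads were split among its members. They do depend on whether reads that fit several genes, in or outside the class, were counted, which is not known. H1 summed to 139 and 157 CPM (WT) against 210 and 252 CPM (Esr2-KO), a log2 ratio of 0.64 that is almost wholly Hist1h1c. H2B summed to 164 and 162 CPM (WT) against 139 and 152 CPM (Esr2-KO), a log2 ratio of -0.17, with both Esr2-KO libraries below WT. The sums of H2A (6.25 and 4.71 against 3.86 and 5.80 CPM), H3 (4.60 and 3.94 against 3.39 and 4.44 CPM) and H4 (14.3 and 12.0 against 13.1 and 15.1 CPM) overlapped between the groups. No test was run on sums. All 69 genes together gave 329 and 340 CPM (WT) against 370 and 429 CPM (Esr2-KO), a log2 ratio of 0.26 that shrank to 0.081 with library totals, and without the 3 leading genes the ratio was -0.077.

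A nucleosome holds the core histones in equal numbers, but the counts given to these genes were far from equal by class. How reads that fit several genes were counted may bear on this and was not tested. The lengths used are those of the annotated exons, from 312 bases (Hist1h4k) to 7425 (Hist1h1d). Values per kb depend on them, and the lengths of the transcripts present were not measured. Summed per kb of exon and averaged over the libraries, H2B reached 124 CPM per kb, H4 24.2, H2A 7.48 and H3 5.47, beside 121 for H1. Single genes made up most of the highest sums: Hist1h2bc alone gave 108 of H2B and Hist1h1c 119 of H1. The 17 other H2B genes summed to 15.6 CPM per kb, below H4, and the 5 other H1 genes to 1.57. The library ranges of H2B (111 to 131) and H1 (88.5 to 160) overlapped, as did those of H2A (5.73 to 9.24) and H3 (3.91 to 7.03), whereas H4 (20.3 to 29.0) was separate from all of them.

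Several replacement histone genes outside the clusters had much higher levels per length than the clustered H3 and H2A genes. H3f3b and H3f3a, which encode H3.3, averaged 169 and 88.8 CPM per kb, the linker variant H1f0 averaged 189, and the H2A variant H2afj 66.4. Of the 11 replacement genes edgeR called 0 (2.69% of all genes), and 3 had an unadjusted p under 0.05 (20.6% of all genes). With limma-voom and DESeq2, 0 and 1 were called (3.53% and 10.2% of all genes with an adjusted p). The median log2 fold change was -0.25, with 9 negative. Cenpa, the H3 variant of the centromere, had 45.0 and 34.3 CPM (WT) against 24.0 and 14.3 CPM (Esr2-KO), at -1.05 ± 0.26 (adjusted p 0.0919), and it was the gene that DESeq2 called (adjusted p 0.00198). H2afx, the replication-coupled variant with both a stem-loop and a poly(A) form, had 53.1 and 41.0 CPM against 38.0 and 31.2 CPM, at -0.44 ± 0.17 (adjusted p 0.216).

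The factors that make and destroy histone mRNA went both ways. Of 18, 8 were positive and 10 negative, with a median log2 fold change of -0.037. Esr2-KO lay wholly above WT in 4 and wholly below in 7, against 27.0% and 27.7% of all genes. None was called by edgeR (2.69% of all genes), with 3 at an unadjusted p under 0.05 (20.6%). By limma-voom 0 were called (3.53%), and by DESeq2 1 was (10.2% of the genes to which it gave an adjusted p). Slbp, the stem-loop binding protein, had 54.8 and 51.6 CPM (WT) against 51.5 and 49.96 CPM (Esr2-KO). Upf1, a helicase used in histone mRNA decay, had 50.6 and 50.5 CPM (WT) against 63.8 and 74.7 CPM (Esr2-KO), at 0.45 ± 0.12 (adjusted p 0.108), and was the gene that DESeq2 called (adjusted p 0.0416). Lsm10, a subunit of the U7 snRNP, had 8.70 and 7.27 CPM against 11.5 and 11.04 CPM, at 0.50 ± 0.20 (adjusted p 0.231).

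Of the histone chaperones and assembly factors, 13 of 14 were tested, with 10 negative and a median of -0.25. Among them edgeR called 0 (2.69% of all genes), with 3 at an unadjusted p under 0.05 (20.6% of all genes). limma-voom and DESeq2 also called 0. Nasp, a chaperone of H3, H4 and linker histones, had 53.4 and 44.6 CPM (WT) against 37.4 and 33.8 CPM (Esr2-KO), at -0.46 ± 0.14 (adjusted p 0.137). Ipo4, an importin that carries H3 and H4 to the nucleus, had 21.5 and 17.9 CPM against 23.9 and 31.4 CPM, at 0.49 ± 0.19 (adjusted p 0.205).

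Fold changes of cell cycle genes were mostly negative, where 50.3% of all 17169 genes tested were negative and 1.39% were called lower. Over all genes, Esr2-KO lay wholly below WT in 27.7%, and 20.6% had an unadjusted edgeR p under 0.05. Of 33 tested genes of S phase and DNA replication, 31 were negative with a median log2 fold change of -0.49, and 1 was called, lower. In this list Esr2-KO lay wholly below WT in 22, and 19 had an unadjusted p under 0.05. All 25 mitosis genes were negative, with a median of -1.07. In all 25 Esr2-KO lay wholly below WT with an unadjusted p under 0.05, and 5 were called, lower. They were the motor proteins Kif23 (-1.15 ± 0.17) and Kif11 (-1.30 ± 0.23), the spindle factors Tpx2 (-0.94 ± 0.16) and Nusap1 (-1.26 ± 0.23), and the kinetochore subunit Ndc80 (-1.63 ± 0.26). The calls rested on single libraries. They were lost without WT 1, and calls over all genes also fell without WT 1 and without WT 2. Of the mitosis genes, Kif23 (adjusted p 0.0544), Ndc80 (0.0596) and Tpx2 (0.0551) missed the threshold without WT 2, and Tpx2 (0.0519) missed it without Esr2-KO 2. Without Esr2-KO 1 there were 7 S phase and 24 mitosis genes called lower, and without Esr2-KO 2 there were 2 and 5. Over all genes, those called in either direction were 1804 of 17984 without Esr2-KO 1 and 501 of 18083 (2.77%) without Esr2-KO 2, against 462 of 17169 with all 4 libraries. The median of the 32 histone genes stood at -0.0023 beside these values, and whether the lists differ was not tested.

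**Figure D5:**
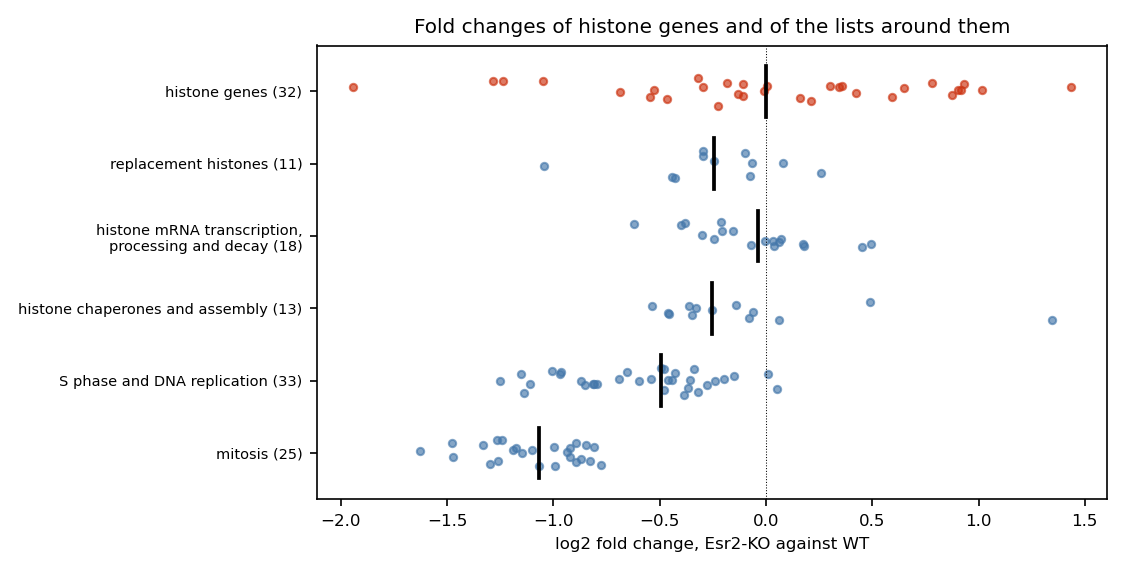
Log2 fold change of Esr2-KO against WT (horizontal axis) of each tested gene (point) in the histone genes and in 5 lists of related genes, with the number tested in brackets and the median as a black line. The histone genes spread on both sides of 0 around a median of -0.0023, while the medians of S phase and mitosis lie at -0.49 and -1.07.

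The summed CPM of marker lists of other cell types also varied between the libraries. The exocrine pancreas list summed to 462 and 524 CPM (WT) against 1860 and 233709 CPM (Esr2-KO), with Prss1, Prss2, Try4 and Try10 at 0 counts in all libraries. Of its 19 tested genes edgeR called 1, Spink1, higher, where 1.30% of all genes were called higher. All 19 were positive, with Esr2-KO wholly above WT (27.0% of all genes) and an unadjusted edgeR p under 0.05 (20.6% of all genes). The B cell list summed to 31.6 and 66.0 CPM (WT) against 104 and 55.4 CPM (Esr2-KO), with 0 of 12 called and Mef2b at 0. The T and NK cell list summed to 27.4 and 41.5 CPM (WT) against 21.5 and 13.3 CPM (Esr2-KO), with 0 of 10 called and Trac at 0. The erythroid list summed to 14.3 and 79.0 CPM (WT) against 123 and 166 CPM (Esr2-KO), with 0 of 6 called. Of all genes, edgeR called 2.69% in either direction. An unadjusted edgeR p under 0.05 was given to 6 B cell, 4 T and NK cell and 2 erythroid genes, against 20.6% of all genes. In the same order, DESeq2 called 1, 2 and 0 (10.2% of all genes with an adjusted p), and limma-voom called 0 in each (3.53%). The part of these cells in the histone values was not tested. Leaving the pancreas genes out of the totals and the fit changes the scaling and not the histone counts, and Hist1h1c then had a log2 fold change of 0.66 (adjusted p 0.0619). In bulk tissue, fewer cells of a type and less RNA per cell cannot be told apart.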

How the data were processed

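The authors deposited counts per gene symbol for 4 libraries, which are unnormalized whole numbers by their values. Directional libraries were made from Trizol RNA after removal of ribosomal RNA, per the labels' protocols. Alignment used HISAT2 and mm10, the build of the annotation used here, per the submitters' processing notes. The sources used here do not name the counting program or its handling of strand and of multiply mapped reads.

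Genes passing filterByExpr (minimum count 10, minimum total 15; 17169 genes) were scaled by TMM and tested with edgeR 4.0.16 (quasi-likelihood, two-sided, genotype only) in R 4.3.3, with Benjamini-Hochberg adjustment over all genes tested and a threshold of 0.05. The common biological coefficient of variation came to 0.233. CPM uses TMM-scaled totals, and CPM per kb divides it by the merged exon length of GENCODE vM21. Counts of the WT libraries differed by more than sampling noise (chi-square 39.7 per degree of freedom), as did those of Esr2-KO (478). The procedure was tested on simulated data. Alternatives were 3 other scalings, 2 other filters, DESeq2 1.42.0 and limma-voom (limma 3.58.1), a block for the replicate number, leaving out each library, the exocrine pancreas genes left out, and an adjusted p under 0.1.

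The members and lists were chosen with earlier results of these data known. Named members are those past the threshold, the 3 most abundant per class, the 3 largest rises and falls, the tested members on chromosomes 3, 6 and 11, and germ-line types. Of each list, up to 4 genes past the threshold or, with none, the 2 of smallest p were named. The gene called on the S phase list is not reported here. Slbp, Rn7sk, Car4, Nusap1, Hist4h4, the replacement histones other than Cenpa and H2afx, and single genes given for a level or a pair were named after their values were seen.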

Additional observations from a re-analysis of the deposited data

How the results depend on the processing

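The count of histone genes called higher was 0 with the main settings. It became 1, Hist1h1c, by DESeq2 (10.2% of all genes called in either direction) and without the low-count filter (7.51%). This count was also 1 at an adjusted p under 0.1, a threshold for which the share of all genes is not given here. Counts with a library left out are not compared, because a group then holds 1 library and the share called over all genes changes too. The log2 fold change of Hist1h1c ranged from 0.48 to 0.78 over all alternatives run. The count called lower stayed at 0 under all alternatives run. The median log2 fold change of the tested histone genes ranged from -0.26 (without Esr2-KO 2, 38 genes tested) to 0.18 (without WT 1) with a library left out. With library totals in place of TMM the median of all genes moved to -0.17, and the log2 ratio of summed histone CPM fell from 0.26 to 0.081.

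Of 21 named tested histone genes, 17 kept their sign under every alternative run. With a library left out, Hist1h2be ranged from -0.63 to 0.10 and Hist1h3d from -0.18 to 0.76 (both turned without WT 1), Hist1h4c from -0.55 to 0.026 (turned without WT 2), and Hist2h3c1 from -0.49 to 0.77 (turned without WT 1 and, at 0.072, without Esr2-KO 2). Rmrp ranged from -0.25 to 1.45 and Rpph1 from -0.41 to 1.12 (both turned without WT 1). Hist2h3c1 also turned to 0.12 by limma-voom and to 0.0018 without the pancreas genes. The cause was not tested. Over all alternatives run, the median log2 fold change ranged from -0.82 to -0.31 for S phase genes and from -1.37 to -0.80 for mitosis genes. The calls in these lists did not hold under every alternative, and the share called over all genes also changed with the setting.

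The labels give both groups replicate numbers, but deviations of same-numbered libraries correlated at -0.089 and the labels do not say that a number marks a pair. With the replicate block in edgeR, 0 histone genes were called, against 490 of all 17169 genes tested (2.85%). Hist1h1c had a log2 fold change of 0.65 (adjusted p 0.0653), Hist2h3c1 turned to 0.074, and the median of the tested histone genes was 0.0305. Cenpa was called lower (adjusted p 0.0406), and 17 mitosis genes were called lower in place of 5. The 37 untested members had a median total of 9 counts, and what keeps them low was not tested.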

Other observations

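Members known from the germ line were at or near the floor. Hist1h2ba, the testis H2B, had 1 count in Esr2-KO 1 and none elsewhere, Hist1h2aa, the testis H2A, had none in any library, and 7 testis and germ line markers summed to 8, 12, 13 and 19 counts. Of those markers Sycp3, Tnp1 and Prm2 were at 0.

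Among RNAs without a poly(A) tail, Rmrp, the RNA of the mitochondrial RNA processing ribonuclease, had 9 and 28 counts (WT) against 24 and 17 (Esr2-KO), for a log2 fold change of 0.36 ± 0.69. Rpph1, the RNA of ribonuclease P, had 16 and 44 counts (WT) against 34 and 24 (Esr2-KO), at 0.16 ± 0.61. In both, WT 1 was the lowest library and WT 2 the highest. Rny1, Rny3, Rnu11 and Scarna6 had no count in any library, below 0.0826 to 0.114 CPM.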
